A study of Caenorhabditis elegans with 2 samples.

Results

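LIN-13 binding was examined at 6 genes of Caenorhabditis elegans whose products act on germline chromatin: mes-2, mes-3, mes-6, mes-4, met-1 and mrg-1. They were chosen by name as the genes of the MES proteins, of MRG-1 and of the histone methyltransferase MET-1, and they are 6 of 19973 protein-coding genes. Every listed region whose summit lay in the body of a gene or within 1000 bp of it was assigned to that gene, which gave 21 of the 30000 regions of the list made from both replicates together (the pooled list). The material was 1 group of 2 biological replicates of whole mixed-stage embryos, pooled male and female and of unknown age, from strain OP51. This strain carries the transgene wgIs51, an insertion that expresses LIN-13 tagged with enhanced green fluorescent protein, in an unc-119(ed3) background, and both replicates share all of these features. LIN-13, a zinc finger protein, belongs to the synMuv B group of chromatin regulators, and chromatin immunoprecipitation with sequencing (ChIP-seq) recovers the DNA it is bound to. The antibody is entered in the labels as lin-13, so the lists may hold sites of tagged LIN-13 alone or of untagged LIN-13 as well. An untagged strain was not analysed here. In whole embryos a weak region cannot be told apart from a strong one present in few cells, such as the germline precursors.

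MES-2, MES-3 and MES-6 form a complex related to Polycomb repressive complex 2 of flies and mammals, which methylates histone H3 at lysine 27 (H3K27) and represses genes. MES-4 and MET-1 both methylate lysine 36 of the same histone (H3K36). MES-4 keeps this mark on genes that were expressed in the parental germline, and MET-1 adds it as genes are transcribed. MRG-1 has a chromodomain of the kind that recognises methylated H3K36. Maternal loss of a mes gene or of mrg-1 leaves the offspring sterile because their germ cells do not survive. In synMuv B mutants germline genes become active in somatic cells, and MES-4 and MRG-1 are known to be needed for that misexpression.

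LIN-13 had a peak of the authors' final set at mes-2, mes-6 and mrg-1, and none at mes-3, mes-4 or met-1. The authors obtained that set by irreproducible discovery rate (IDR) analysis, a filter on how well ranks recur between replicates, and it is the strongest 5.11% of the pooled list. All 3 peaks lay just upstream of the transcription start site (TSS) of their gene, at 118, 15 and 240 bp, and ranked 618, 824 and 189 in the pooled list, where rank 1 is the strongest. Over all protein-coding genes the same rule gave a peak at 2142 of 19973 (10.7%), or at 8.15% with a promoter window (up to 1000 bp before and 200 bp after any TSS), which kept all 3 peaks. The median length was 4489 bp for the 6 genes and 2027 bp for all protein-coding genes, so the windows of the 6 genes were longer than most. The 6 genes were chosen by name with earlier results of these data known. No test was made on them, and the counts are a description of these lists. No summit of the final set lay inside the body of any of the 6 genes. When each peak was given to its nearest coding TSS alone, mrg-1 lost its peak to its neighbour, and when the stronger 50% of peaks were kept, mes-6 lost its own.

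The sequences under the 3 peaks, and under the strongest region of mes-4 as a gene without one, are shown because the peaks lie in promoters and the letters there can be read against the summit. They come from the RefSeq copy of assembly WBcel235, which is ce11, and run 5′ to 3′ on the strand of the gene over the listed region, without the bases that the annotation places in exons. The mes-2 sequence is chrII:14383713-14383972 on the plus strand, 260 bases with the summit at base 143. The mes-6 sequence is chrIV:8511127-8511283 on the plus strand, 157 bases with the summit at base 143. The mrg-1 sequence is chrIII:12874754-12875030 on the minus strand, 277 bases with the summit at base 135. The mes-4 sequence is chrV:13437870-13438153 on the minus strand, 284 bases with the summit at base 142. Capitals mark every match, on either strand, to 5 motifs named and spelled out after the sequences.
mes-2: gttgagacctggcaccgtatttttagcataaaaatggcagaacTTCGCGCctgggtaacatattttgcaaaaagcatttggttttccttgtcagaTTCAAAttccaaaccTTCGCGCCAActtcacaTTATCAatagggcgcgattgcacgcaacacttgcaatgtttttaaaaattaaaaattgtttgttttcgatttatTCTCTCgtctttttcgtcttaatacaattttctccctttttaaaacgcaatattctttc
mes-6: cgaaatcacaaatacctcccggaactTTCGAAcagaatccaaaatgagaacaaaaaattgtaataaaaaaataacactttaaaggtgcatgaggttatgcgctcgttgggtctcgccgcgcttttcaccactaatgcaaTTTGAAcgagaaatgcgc
mrg-1: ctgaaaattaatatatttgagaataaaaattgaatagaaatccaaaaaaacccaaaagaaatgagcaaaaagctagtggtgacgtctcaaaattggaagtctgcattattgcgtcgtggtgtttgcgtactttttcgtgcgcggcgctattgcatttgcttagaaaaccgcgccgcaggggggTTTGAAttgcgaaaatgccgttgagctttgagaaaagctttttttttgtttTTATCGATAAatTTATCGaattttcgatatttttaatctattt
mes-4: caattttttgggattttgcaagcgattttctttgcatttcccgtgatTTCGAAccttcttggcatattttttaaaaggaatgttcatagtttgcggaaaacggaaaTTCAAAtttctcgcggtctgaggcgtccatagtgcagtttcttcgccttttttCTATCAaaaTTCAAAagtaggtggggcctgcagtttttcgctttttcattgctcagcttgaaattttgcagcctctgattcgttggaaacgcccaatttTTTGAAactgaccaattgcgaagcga

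The motifs searched were E2F-like sites (TTCCCGC or TTCGCGC or TTGCCGC or TTGGCGC), the cell cycle homology region (TTCGAA or TTTGAA), a GA repeat searched as GAGAGA, a zinc finger type site (CCACCC or CCGCCC) and GATA sites (AGATAA or TGATAA or CGATAA or AGATAG or TGATAG or CGATAG). E2F proteins and the cell cycle homology region are how the DREAM complex, another synMuv B assembly, reaches its targets. The mes-2 peak held 3 E2F-like matches. Those at 217 and 150 bp upstream of the TSS read TTCGCGC on the strand of the gene, and the other, TTGGCGC on the opposite strand at 147 bp, overlaps the one at 150 bp. No E2F-like match was found in the 284 bp around the summits at mes-6, mrg-1 or the strongest regions of mes-3, mes-4 and met-1. The strongest regions of mes-3 and met-1 lay in coding exons, not in promoters. An E2F-like match was present in 23.1% of IDR peaks and 14.1% of the 28466 other pooled regions, in windows of the same length. The cell cycle homology region occurred at the strongest region of all 6 genes, with 1 match at mes-2, mes-3, mrg-1 and met-1, 2 at mes-6 and 4 at mes-4, and it is frequent everywhere, at 55.6% of IDR peaks and 58.6% of other regions. GATA matches lay at mes-2 (1), mes-6 (1, in the exonic bases not printed), mes-4 (1) and mrg-1, whose 3 matches all read CGATAA between 140 and 128 bp upstream of the TSS, with 2 of them overlapping. They were found in 47.3% of IDR peaks and 48.6% of other regions. GAGAGA occurred once at mes-2 and once at met-1 (41.5% of IDR peaks and 20.1% of other regions), and the zinc finger type site at none of the 6 (21% and 15%). The windows at the 3 peaks had GC contents of 37.3% at mes-2, 33.8% at mes-6 and 35.6% at mrg-1, all below the median of 41.2% over IDR peaks.

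**Figure D1:**
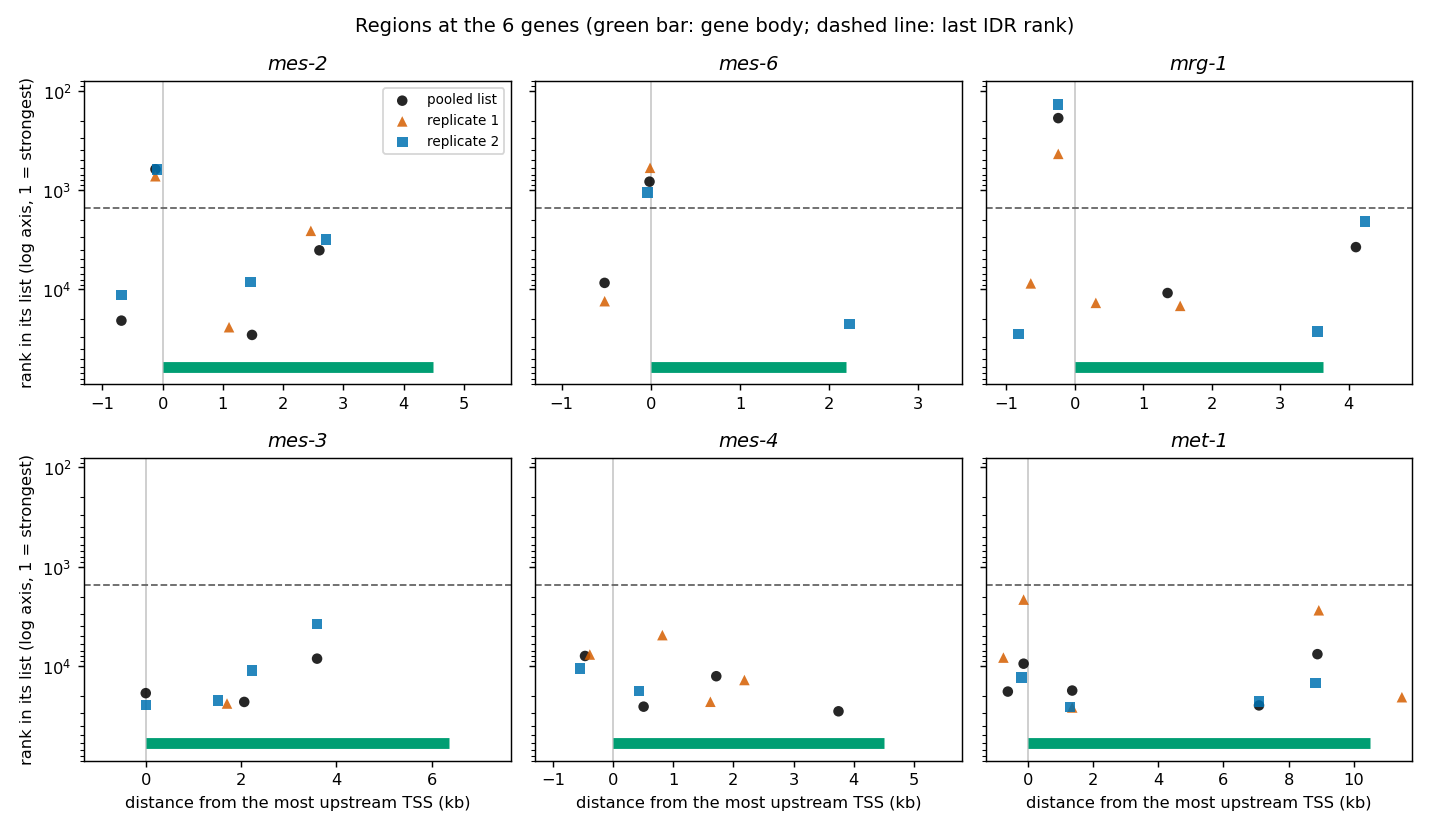
Each panel plots, for 1 gene, the distance of every listed summit from the most upstream TSS in kb (horizontal) against its rank in its own list (vertical, log axis, strongest at the top). Circles are the pooled list, triangles replicate 1 and squares replicate 2, the green bar is the gene body and the dashed line is the last rank of the IDR set. At mes-2, mes-6 and mrg-1 all 3 lists place a region above the line just upstream of the TSS, and no other region of the 6 genes reaches it.

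mes-2 (WBGene00003220) encodes the catalytic subunit of the H3K27 methyltransferase complex, the worm counterpart of fly Enhancer of zeste, and lies at chrII:14383973-14388454 on the plus strand with 1 annotated TSS. Its peak spanned 14383713 to 14383996, in intergenic sequence that reaches into the first bases of the gene, with a signal of 54.8 in the pooled list. It ranked 727 in replicate 1, with a signal of 20.5, and 623 in replicate 2, with a signal of 35.4. The signal is the peak caller's value and its scale differs between lists, so only ranks are set side by side. The summits of the replicates were 2 and 28 bp from the pooled one, and no other coding TSS lay within 1000 bp of it. The end of the upstream gene sdz-26 was 476 bp from the summit, so the peak also lay in the window of that gene. Inside the gene the pooled list had an intronic region 2602 bp downstream of the TSS at rank 4047. The nearest replicate regions ranked 2577 and 3134, but their summits were 142 and 112 bp away from the pooled one, so they did not count as the same region under the limit of 100 bp used here. The remaining pooled regions of mes-2 ranked 20645 and 28755 and had a match in replicate 2 alone.

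mes-6 (WBGene00003224) encodes the WD40 repeat subunit, related to fly Extra sex combs, and lies at chrIV:8511284-8513469 on the plus strand with 1 annotated TSS. The peak spanned 8511127 to 8511410 and its summit, 15 bp upstream of the TSS, was the closest to a start site of the 3. Its pooled signal was 47.6, which is below the median of 49.5 over all IDR peaks, and 53.7% of IDR peaks were stronger. It ranked 598 in replicate 1 (signal 22.6) and 1055 in replicate 2 (signal 26.7), with summits 6 and 25 bp from the pooled one. The divergent neighbour tag-77 starts 721 bp from the summit, so the same peak lay in the windows of 2 genes. The only other pooled region of mes-6, 519 bp upstream at rank 8608, was closer to the TSS of tag-77 than to its own and had a match in replicate 1 alone.

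mes-3 (WBGene00003221) encodes the third subunit, whose sequence resembles that of no fly Polycomb protein closely, and lies at chrI:4996835-5003202 on the plus strand. Its 2 annotated TSSs are at 4996835 and 4996839. No IDR peak lay in its window, and its 3 pooled regions ranked 8435, 18768 and 23005. The region over the start site, 7 and 11 bp upstream of the TSSs, was the one at rank 18768. It ranked 24779 in replicate 2 and had no region within 100 bp in replicate 1. The strongest region lay in a coding exon, 3592 bp downstream of the first TSS, with rank 3776 in replicate 2 and again none in replicate 1. No region of mes-3 was found in both replicates, so the complex's 3 genes split into mes-2 and mes-6 with a promoter peak and mes-3 without one.

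mes-4 (WBGene00003222) encodes the H3K36 methyltransferase of the NSD family and lies at chrV:13433050-13437545 on the minus strand with 1 TSS. Its strongest pooled region was upstream, at 467 bp from the TSS, with a signal of 13.8 and rank 7929. This region had a match in each replicate, at rank 7669 in replicate 1 (388 bp upstream, signal 5.65) and 10644 in replicate 2 (547 bp upstream, signal 10.03). The summits of these matches lay 79 and 80 bp from the pooled one, on opposite sides of it. The ranks of the region were all far below the last rank of the IDR set. The remaining pooled regions lay 507, 1715 and 3747 bp downstream of the TSS at ranks 25668, 12674 and 28581. The best region of replicate 1 was another one, in a coding exon at 819 bp downstream with rank 4892, and neither the pooled list nor replicate 2 had a summit within 100 bp of it.

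met-1 (WBGene00016603) encodes the Set2-type H3K36 methyltransferase and is the longest of the 6 genes, at chrI:4254197-4264699 on the plus strand. It has 4 annotated TSSs at 4254197, 4254269, 4254466 and 4255393. A pooled region 134 bp upstream of the first TSS, and 206, 403 and 1330 bp upstream of the others, had a signal of 12.8 and rank 9481. It lay in an intron of the upstream gene C43E11.12. Its match in replicate 1 had the same summit and rank 2148, and that in replicate 2 rank 13005, so the replicates placed it very differently. A region near the 3′ end of met-1, in a coding exon 8886 bp downstream of the first TSS, was the strongest in the pooled list at rank 7602, with ranks of 2750 and 14825 in the replicates. Another region, 162 bp downstream of the last TSS, was also found in both replicates, at ranks 26176 and 25974, close to the end of lists that hold 30000 regions each. The other pooled regions of met-1 were at 618 bp upstream of the first TSS (rank 18095) and in a coding exon 7092 bp downstream of it (rank 24925).

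mrg-1 (WBGene00003406), which encodes the chromodomain protein, lies at chrIII:12871029-12874656 on the minus strand with TSSs at 12874656 and 12874654. It had the strongest peak of the 6 genes. The peak spanned 12874754 to 12875037, entirely upstream, with its summit 240 and 242 bp from the TSSs, a pooled signal of 92.7 and 12.3% of IDR peaks stronger. It ranked 433 in replicate 1 (signal 26.9) and 137 in replicate 2 (signal 68.9), with summits 0 and 3 bp from the pooled one. The peak sits between mrg-1 and the divergent gene spcs-2, which is named for the signal peptidase complex and starts 135 bp from the summit, closer than mrg-1 itself. The end of cec-7, on the far side of spcs-2, was 887 bp from the summit, so the windows of 3 genes held the peak. These data cannot tell which of them the peak belongs to. A second region beyond the 3′ end of mrg-1, at rank 3758, lay 256 bp from the TSS of the next gene, Y37D8A.6. Replicate 2 had a region 132 bp from its summit at rank 2075, and replicate 1 had none within 250 bp. An intronic region 1355 bp downstream of the first TSS ranked 10887 and had no match in either replicate.

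**Figure D2:**
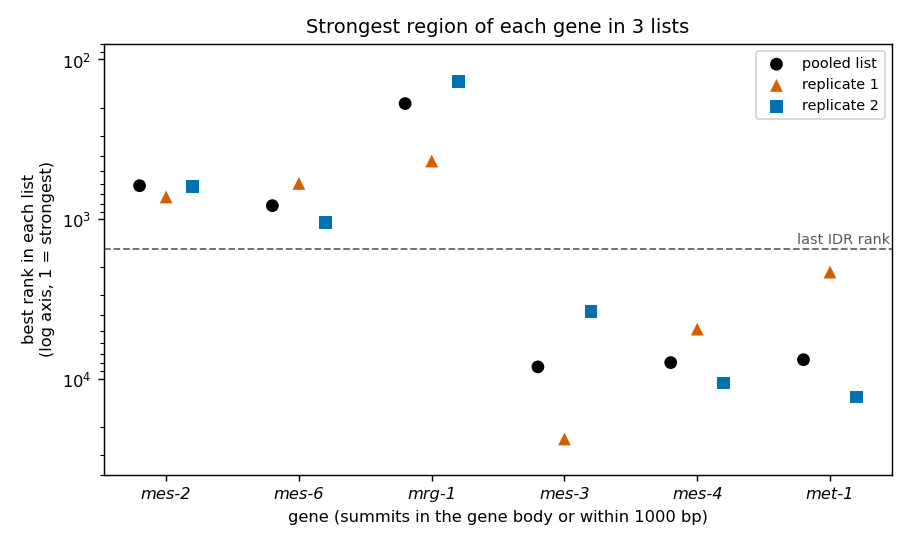
The best rank of each gene (vertical, log axis, strongest at the top) in the pooled list, replicate 1 and replicate 2, over all summits in its body or within 1000 bp; the dashed line is the last IDR rank. For mes-2, mes-6 and mrg-1 the 3 lists give ranks between 137 and 1055, and for mes-3, mes-4 and met-1 between 2148 and 23874.

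The IDR set was made from the pooled list and from how ranks recur between these same replicates, so the genes with a peak had to rank above the others in the pooled list and were likely to in each replicate. The ranks in the replicates are given as a description. The best ranks of mes-2, mes-6 and mrg-1 ran from 433 to 727 in replicate 1 and from 137 to 1055 in replicate 2, and those of mes-3, mes-4 and met-1 from 2148 to 23874 in replicate 1 and from 3776 to 13005 in replicate 2. Each replicate taken alone, with as many of its strongest regions as the IDR set holds, called these 3 genes, which the choice of the IDR set favours. The background was 10.4% of protein-coding genes in replicate 1 and 10.1% in replicate 2. The order within the 3 genes with a peak was less settled. mrg-1 came first in all 3 lists, but mes-6 was ahead of mes-2 in replicate 1 and behind it in replicate 2. Among the other 3, met-1 led in replicate 1, with its region 134 bp upstream of the first TSS, and mes-3 in replicate 2, with its exonic region.

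Of the 21 pooled regions at these genes, 7 had a summit within 100 bp in both replicates, 2 in replicate 1 alone, 6 in replicate 2 alone and 6 in neither. All 3 IDR peaks were among the 7, beside 1 region of mes-4 and 3 of met-1. By gene, 5 of the 6 had a pooled region found in both replicates, against 26.7% of protein-coding genes, and all 6 had some pooled region, against 66.3%. Each replicate summit was matched to the pooled one, so the matches could lie more than 100 bp from each other. That was so at mes-4 (79 and 80 bp from the pooled summit, on opposite sides). It was also so at the 3′ region of met-1 (42 and 65 bp, on opposite sides). mes-4 counted among the 5 genes only through that region. Outside the IDR set 4 of 18 regions at these genes (22.2%) were found in both replicates, against 14.4% of such regions over the whole pooled list, and of all IDR peaks 89.5% were. The counts depended on the matching distance. With replicate summits within 50 bp of the pooled one, the regions found in both replicates were the 3 IDR peaks. So 3 of the 6 genes had one, against 19.1% of protein-coding genes. Of the 18 other regions 0 were found in both, against 7.48% over the whole pooled list. Those 18 regions ranked from 3758 to 28755. By annotation 7 of them had their summit in a coding exon, 7 in an intron and 4 in intergenic sequence, and all 3 IDR summits were intergenic. The 6 genes had a median of 0.505 pooled regions per kb of window, and protein-coding genes 0.268.

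**Figure D3:**
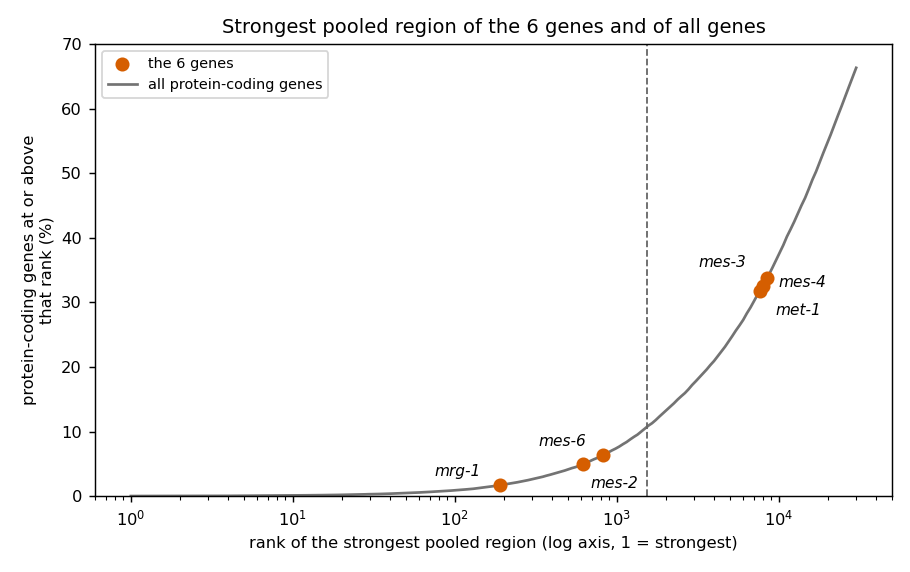
The 6 genes (orange points) on the cumulative curve of all protein-coding genes (grey line): the horizontal axis is the rank of a gene's strongest pooled region (log axis) and the vertical axis the percentage of the 19973 genes at that rank or above it. The dashed line is the last IDR rank. mrg-1, mes-2 and mes-6 are within the top 6.37% of genes, and met-1, mes-4 and mes-3 lie close together between 31.7% and 33.8%.

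Set on the scale of all genes, 1.68% of protein-coding genes had a region as strong as that of mrg-1 or stronger, 4.96% as strong as that of mes-2 and 6.37% as strong as that of mes-6. For met-1, mes-4 and mes-3 these shares were 31.7%, 32.6% and 33.8%. The regions of met-1 and mes-3 were exonic, the best of 5 and 3 in windows of 12503 and 8368 bp. A longer window can hold more regions, and gene length was not matched. With the promoter window the best ranks were 9481 for met-1, 18768 for mes-3 and 7929 for mes-4. By best rank in the whole window, the genes without a peak were not at the bottom of the genome-wide order, where 33.7% of genes had no pooled region at all. The peaks most like the 3, by the sum of differences in log2 rank over the pooled list and both replicates among 1373 IDR peaks found in all 3 lists, were those nearest to nap-1 and snt-2 for mes-2 (0.122 and 0.159). For mes-6 they were those nearest to seip-1 and copz-1 (0.197 and 0.208), and for mrg-1 those nearest to eef-2 and ints-4 (0.169 and 0.387).

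Other genes of the same chromatin pathways held LIN-13 peaks as well. Beside 3 of the 6 genes described here, 10 of 29 such genes in 4 lists (34.5%) had an IDR peak in the body or within 1000 bp, where all protein-coding genes had 10.7%. The number was 5 of 29 (17.2%) when each peak was given to its nearest coding TSS alone, where all protein-coding genes had 7.24%. It was also 5 among the peaks strongest in both replicates, where all protein-coding genes had 6.22%. Gene length was not matched between the 29 genes and all protein-coding genes. The 4 lists were chosen with earlier results of these data known, and no test was made on them. The median best rank in the pooled list was 4213 for the 6 genes, 2336 for the 29 and 16799 for all protein-coding genes, with genes lacking a region placed last. Among genes for the removal of H3K27 and H3K36 methylation, 2 of 6 had a peak. That of utx-1, an H3K27 demethylase gene, lay 307 bp upstream and ranked 982 in the pooled list, 662 in replicate 1 and 1950 in replicate 2. That of jmjd-2 was in an intron 7596 bp downstream of its nearest TSS and ranked 1259 and, in replicate 2, 1043, with no match in replicate 1. This list thus had 1 gene in each replicate alone, utx-1 in replicate 1 and jmjd-2 in replicate 2. jmjd-3.1, jmjd-3.2 and jmjd-3.3 had regions at ranks 9115, 15613 and 27951, and jmjd-5 had none.

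The H3K4 methyltransferase complex, which marks active genes and opposes Polycomb in flies, had 3 of 8 genes with a peak, against 10.7% of protein-coding genes. The strongest belonged to set-16, a methyltransferase gene, 182 bp upstream with rank 26 in the pooled list and ranks 96 and 20 in replicates 1 and 2, and it lay a little closer to the TSS of drr-2. ash-2 had 2 peaks, at ranks 256 and 1014. The one at rank 1014 lay 36 bp downstream of a TSS of ash-2 and slightly closer to that of Y17G7B.20, at 30 bp. dpy-30, which also serves dosage compensation, had 1 at rank 743, 381 bp upstream. The promoters of set-2 and wdr-5.1 came just below the last IDR rank, at 1681 and 1874. rbbp-5, cfp-1 and swd-2.2 followed at 5586, 8381 and 14389.

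Among partners of MRG-1 and genes of Sin3 and MYST acetyltransferase complexes, 4 of 9 had a peak. epc-1, for an Enhancer of Polycomb protein, had one 243 bp upstream at rank 90, and set-26, whose product has been found with MRG-1, one 562 bp upstream at rank 162 that was closer to tsr-2. trr-1, for a TRRAP-like subunit, had one at rank 425, with ranks of 141 and 1560 in replicates 1 and 2. This peak lay 220 bp upstream of trr-1 and closer to the TSS of C47D12.2, at 159 bp. mys-1, for a MYST acetyltransferase, had one at rank 1507, with ranks of 5667 and 1088. hda-1, ogt-1, sin-3 and rfp-1 lay below the limit at ranks of 1734, 2336, 2596 and 2924, and mys-2 at 14726. In replicates 1 and 2 the region of hda-1 ranked 861 and 11490, and that of ogt-1 4723 and 1042. The replicates thus ranked several genes of this list differently, but epc-1 (ranks 121 and 95) and set-26 (228 and 128) ranked high in both. Of 6 germline fate genes only 1 (16.7%) had a peak within the window, near the 10.7% of all protein-coding genes. The peak, at rank 731, was that of pie-1, which keeps germline precursors from transcribing. Its summit was 1177 bp downstream of the nearest TSS of pie-1, past the end of the gene, and 261 bp from the TSS of snr-6. It ranked 2086 in replicate 1 and 645 in replicate 2, so replicate 1 alone gave no gene of this list. xnd-1, spr-5 and met-2 had regions at ranks 1972, 9807 and 23124, and nos-1 and nos-2 had none.

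**Figure D4:**
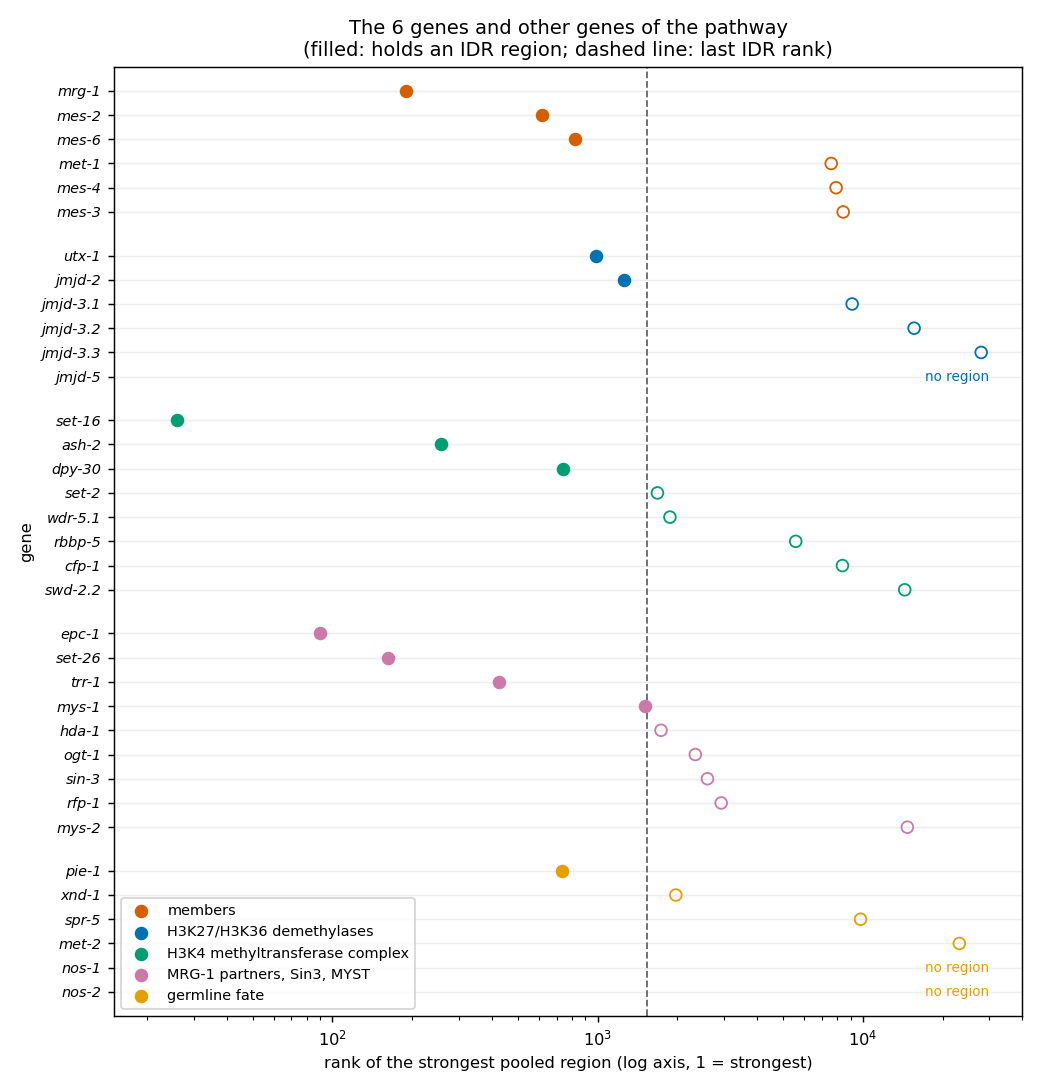
The rank of the strongest pooled region (horizontal, log axis, strongest at the left) for the 6 genes at the top and for 29 genes of 4 related lists below, coloured by list. Filled points hold an IDR peak, open points do not, and the dashed line is the last IDR rank; jmjd-5, nos-1 and nos-2 have no region. Of the 6 genes, those with a peak end at rank 824 and those without one begin at rank 7602, and several genes of the related lists lie in between.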

How the data were processed

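Region lists in narrowPeak format were deposited for builds ce11 and ce10. The ce11 lists were used, since the reference (Ensembl release 115 annotation and RefSeq sequence) is of WBcel235, which is ce11. Per the notes that accompany the lists, regions were called against a control in each replicate and in both together (the pooled list), and IDR analysis of these lists gave the final set. The aligner and the caller were not given in the sources used here. Signal values deposited in column 7 served only for ranks within a list. The deposited −log10 q values of column 9 were not used. Without read counts the depth is unknown. Summits sat at the centre of 99.5% of pooled regions, which had a median width of 284 bp (220 bp in replicate 1, 316 bp in replicate 2), so distances are no finer than the region allows.

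Summits were assigned to gene bodies extended by 1000 bp on each side, and a replicate summit within 100 bp of a pooled one counted as the same region. Ranks give tied signals the better rank, and 2538 regions of replicate 1 shared a signal with another. Python 3.11.15, numpy 2.4.6 and pandas 2.3.3 were used, and the assignment was tested on simulated summits. The text names the 6 genes whatever their values, every related gene with an IDR peak, coding genes with a TSS within 1000 bp of the 3 peaks, and the 2 most similar IDR peaks of each. Other related genes, other neighbouring genes, sdz-26 and cec-7 are named after their values were seen. The 6 genes and the related lists were chosen with earlier results of these data known. The alternatives were other windows, overlap in place of the summit, stricter peak sets, each replicate alone, the nearest coding TSS and other matching distances. Applying them to the related lists and to single genes, and counting all protein-coding genes at the 50 bp distance, was decided after seeing the data.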

Additional observations from a re-analysis of the deposited data

How the results depend on the processing

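The count of 3 genes with a peak was the same with windows of 500 and 2000 bp and with the promoter window, with any overlap of the region, in the peaks that were also among the strongest regions of each replicate, and without replicate 1 or replicate 2 (3 to 3). It was 2 in the stronger 50% of peaks (without mes-6) and 2 by the nearest coding TSS (without mrg-1). With the gene body alone it was 0, by construction, since all 3 summits are upstream, and the count was 307 for all protein-coding genes, 1 for demethylase, 1 for H3K4 methyltransferase, 0 for MRG-1 partner and 0 for germline fate genes. All protein-coding genes with a peak numbered 1196 in the stronger 50% of peaks and 1242 in the peaks strongest in both replicates, where fewer peaks were counted. The member regions of the pooled list numbered 11 in gene bodies and 10 in promoters, and those found in both replicates 3 with summits within 50 bp, the 3 IDR peaks. The 29 related genes with a peak numbered 5 by nearest TSS, 5 in the peaks strongest in both replicates and 2 with the gene body alone. The demethylase list had 1 gene with the promoter window, 1 by nearest TSS, 0 in the stronger 50% of peaks, 0 in the peaks strongest in both replicates, and 1 to 1 without a replicate. The MRG-1 partner list had 2 and 2 in the peaks strongest in both replicates and by nearest TSS. The germline fate list had 0 with 500 bp, with the promoter window, in the peaks strongest in both replicates and by nearest TSS, and 0 to 1 without a replicate. Read depth is unknown, so absence from a list does not show that LIN-13 was absent.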

Other observations

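A short CG-rich word stood out when the sequences were read. CGCGC, on either strand, lay in the 284 bp around the summit at all 3 genes with a peak. It was absent from the same window at the strongest region of mes-3, mes-4 and met-1. The windows held 3 copies at mes-2, 2 at mrg-1 and 4 at mes-6. The centre of the nearest copy lay 2 bp from the summit at mes-2, 6 bp at mrg-1 and 13 bp at mes-6. Distances were not measured over the other IDR peaks, so these do not show that the word is centred on summits. The strongest regions of mes-3 and met-1 lay in coding exons far from a TSS, whereas the 3 peaks lay in promoters. Weaker regions at the start sites of mes-3 and met-1 were not examined singly, so promoters with and without a peak were not compared there. CGCGC was present in 49.6% of the IDR peaks and in 18.3% of the 28466 other pooled regions. The E2F-like spelling TTCGCGC contains this word, so the TTCGCGC matches at mes-2 are counted among its copies there. The word was chosen after the sequences had been seen, so its presence at these genes is a description. The 3 windows had GC contents below the median of IDR peaks. GC content and distance to a TSS were not matched between the sets of regions.

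Soft-masked bases, a rough measure of repeated sequence, made up 58.8% of the window at mrg-1, 52.8% at mes-6 and 20.4% at mes-2. At the strongest regions of the genes without a peak they made up 56.3% at mes-4, 23.9% at met-1 and 7.39% at mes-3, so the genes with and without a peak overlapped in this measure. Over 50% of the window was masked in 18.4% of IDR peaks and 20.1% of other regions.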
